A study of Mus musculus with 12 samples.

Results

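The kinases that switch on NF-κB and the interferon response in macrophages, together with the proteins that feed and restrain them, are described here through 10 genes. *Chuk* (IKKα), *Ikbkb* (IKKβ) and *Ikbkg* (NEMO) encode the IKK complex. *Tbk1* and *Ikbke* (IKKε) encode the IKK-related kinases. *Tnfaip3* (A20), *Tnip1* (ABIN1) and *Cyld* encode proteins that restrain ubiquitin-dependent signaling, and *Ripk1* and *Tab2* encode parts of the platform upstream of the kinases. The genes were chosen by symbol, and all 10 were found among the 12960 genes of the count table and passed the low-count filter that left 10822 genes for testing.

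The IKK complex phosphorylates IκB proteins, which are then degraded and release NF-κB dimers to the nucleus. Signals from TNF receptors and Toll-like receptors reach it on ubiquitin chains, which RIPK1 carries, TAB2 and NEMO read, and A20 and CYLD edit or remove. TBK1 and IKKε act in parallel, downstream of adaptors such as STING, MAVS and TRIF, where they phosphorylate IRF3 and start the type I interferon response. In macrophages A20 is itself a product of NF-κB activity and acts as a brake on it.

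Bone marrow from WT mice and from AMPKβ1-/- mice, which lack the β1 subunit of AMP-activated protein kinase in a knockout that is not driven by a Cre, was grown into macrophages (BMDMs) in medium with L929 supernatant as the source of M-CSF. Cells of each genotype were kept for 6 h with 0.1% DMSO as vehicle or with 10 μM PF-06409577, called PF here, a small-molecule activator selective for AMPK complexes that contain β1. RNA sequencing gave 3 libraries in each of the 4 groups, and the comparisons ask how PF changed these genes, whether the change differed without AMPKβ1, and how the genotypes differed. No inflammatory stimulus is named in the labels of these groups, and nothing in them states whether the 3 libraries of a group came from separate mice or cultures, so p values measure the spread between these libraries, which may be technical.

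The libraries held 8935609 to 14358180 counts. All 7 macrophage markers were tested, with a summed level of 24383 to 28492 CPM (counts per 1000000, with the library size scaled by TMM). Granulocyte markers (4 of 7 listed) summed to at most 0.958 CPM, dendritic cell markers (3 of 3) to at most 1.28 CPM, and 0 of 5 lymphoid markers were listed. The 4 fibroblast markers summed to 2.02 to 7.75 CPM in the AMPKβ1-/- vehicle libraries, against 0.923 to 1.65 CPM in the other 9 libraries, and their part in the results was not tested. *Prkab1*, which encodes AMPKβ1, had 399 to 490 counts in WT libraries and 57 to 120 in AMPKβ1-/- libraries (log2 fold change with vehicle -2.57, SE 0.12, adjusted p = 8.85e-09 from edgeR). In such bulk samples, fewer cells of a type and less RNA per cell cannot be told apart.

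The libraries also differed in how level depended on the GC content of the transcript, and the 10 genes spread widely over that scale. *Chuk* had the lowest GC content of them at 41.3%, followed by *Cyld* (43.5%), *Ikbkg* (44.8%), *Ripk1* (45.1%), *Tbk1* (45.4%), *Tab2* (48.3%), *Tnfaip3* (49.4%), *Ikbkb* (52.0%), *Ikbke* (54.6%) and *Tnip1* (57.8%), where the median of the tested genes was 50.5%. Relative to the mean of the 12 libraries, log2 CPM over the tested genes rose by 0.36 to 0.72 for each 10 points of GC content in the WT vehicle libraries. The slope lay between -0.051 and 0.36 in the WT PF libraries, between -0.36 and -0.099 in the AMPKβ1-/- vehicle libraries and between -0.51 and -0.33 in the AMPKβ1-/- PF libraries. Every WT library thus had a higher slope than every AMPKβ1-/- library, and genotype and this trend cannot be told apart. An alternative fit took out the dependence on GC content and transcript length in each library (the GC-adjusted fit). Values from it are given beside most results of the 10 genes. For the gene lists of the wider pathway, only some counts from it are given.

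The 4 kinases form pairs of close relatives, and their coding sequences show how a similar protein is written with a different base composition. The mouse IKKα and IKKβ proteins had 374 identical residues of 738 aligned (50.7%), TBK1 and IKKε had 338 of 713 (47.4%), and identity across the pairs was 24.1% to 27.1%. Each pair has a GC-poor and a GC-rich partner. GC content at the third codon position was 42.1% in *Chuk* against 68.3% in *Ikbkb*, and 52.3% in *Tbk1* against 69.6% in *Ikbke*. The stretches shown are the coding sequence of the activation loop, the segment of a kinase that is phosphorylated when it is switched on, from the conserved DFG-like start of the loop to its APE-like end. They are printed to show how alike the segments of a pair are in protein while many of their codons differ. The codons of the serines that are phosphorylated on activation are in capitals.
Chuk: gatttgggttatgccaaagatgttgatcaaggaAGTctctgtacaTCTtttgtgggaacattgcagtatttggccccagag
Ikbkb: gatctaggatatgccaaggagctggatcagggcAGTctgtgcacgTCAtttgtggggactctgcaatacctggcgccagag
Tbk1: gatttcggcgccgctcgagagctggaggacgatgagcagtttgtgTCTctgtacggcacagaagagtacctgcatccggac
Ikbke: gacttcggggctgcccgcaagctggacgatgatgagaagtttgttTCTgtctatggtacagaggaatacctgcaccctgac

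These sequences are on the minus strand of GRCm38, from the GENCODE M21 transcripts, and each spans 2 coding exons. The larger exon part lies at chr19:44097442-44097513 for *Chuk*, chr8:22681663-22681734 for *Ikbkb*, chr10:121571843-121571914 for *Tbk1* and chr1:131273641-131273712 for *Ikbke*. *Chuk* and *Ikbkb* shared 61 of 81 bases, and of 27 codons 16 differed without a change of the amino acid while 2 changed it. *Tbk1* and *Ikbke* shared 63 of 81 bases, with 13 such silent differences and 4 changed amino acids. Over the loop, GC content was 43.2% in *Chuk* and 55.6% in *Ikbkb*, but 58.0% in *Tbk1* and 53.1% in *Ikbke*, so in the second pair the loop did not follow the whole transcript.

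Per kilobase of transcript, *Ikbke* was the most abundant of the 10 mRNAs in WT BMDMs with vehicle, at 81.8 CPM per kb (range 76.4 to 88.2). *Tnip1* (63.0) and *Ikbkb* (40.0) followed, and the libraries of these 3 genes did not overlap. *Tab2* (19.3), *Ripk1* (15.6), *Tbk1* (14.8), *Ikbkg* (11.3) and *Tnfaip3* (11.0) came next, and each overlapped with its neighbor in this order. *Cyld* (2.55) and *Chuk* (2.18) were lowest and overlapped with each other. These levels were not adjusted for GC content, and each rests on the length of a single annotated transcript. *Ikbke*, *Tnip1* and *Ikbkb* also had the highest GC content of the 10 genes, and *Chuk* and *Cyld* the lowest. With PF in WT BMDMs the mean of *Ikbke* was 57.8 CPM per kb and its range overlapped with that of *Tnip1* (54.1). In AMPKβ1-/- BMDMs *Ikbke* again lay above *Tnip1* without overlap, at 69.7 against 47.2 CPM per kb with vehicle and 67.4 against 46.8 with PF. The labels name no inflammatory stimulus for these M-CSF-grown cells. *Chuk*, the least abundant, rested on 50 to 110 counts in each WT vehicle library.

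**Figure D1:**
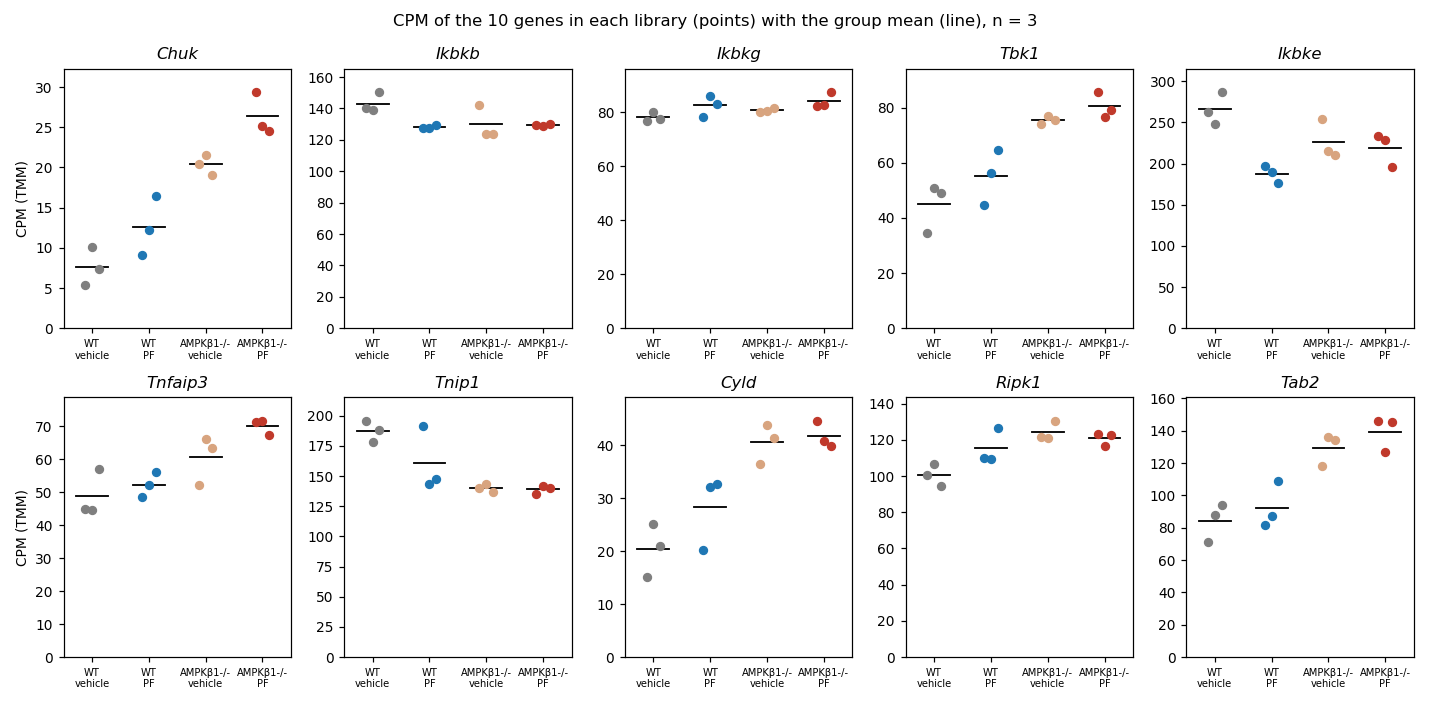
Level of each of the 10 genes in CPM (TMM-scaled, linear axis from 0) in every library, with the mean of the 3 libraries of a group as a line. *Ikbke* is between 176 and 197 CPM in the WT PF libraries and between 248 and 287 CPM in the WT vehicle libraries, while *Chuk*, *Tbk1*, *Cyld* and *Tab2* are higher in every AMPKβ1-/- library than in every WT library.

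PF lowered *Ikbke* in WT BMDMs, and *Chuk* was called higher, a call that was lost under 13 of 23 alternatives. The other 8 genes did not pass the test. These 2 of 10 called genes, 1 in each direction, stand beside 15.9% of all tested genes that were called (6.99% higher and 8.95% lower). None of the 10 was a differentially expressed gene (DEG, with a log2 fold change above 0.8 or below -0.8 as well), where 1.52% of the tested genes were. At an unadjusted p below 0.05 there were 6 of 10. For 3 of 10 genes every PF library lay on one side of every vehicle library, 1 higher and 2 lower, where this held for 32.2% of the tested genes. The median log2 fold change of the 10 genes was 0.12, against 0.0048 over all tested genes.

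*Ikbke*, the inducible IKK-related kinase of immune cells, had 263, 248 and 287 CPM with vehicle and 197, 190 and 176 CPM with PF in WT BMDMs. Every PF library was below every vehicle library. On the log2 scale the change was -0.50 (SE 0.094), and edgeR's quasi-likelihood test gave an adjusted p of 0.00468. Its fall was called under each of 23 alternatives, with log2 fold changes from -0.55 to -0.33 and adjusted p from 9.4e-05 to 0.0274. In the GC-adjusted fit it was -0.33 (SE 0.068, adjusted p = 0.00554), and there it was the only one of the 10 genes called, where 6.98% of the tested genes were. In its own GC decile, the eighth of 10, the median log2 fold change of all tested genes was -0.17 with a lower quartile of -0.28.

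*Tbk1*, the constitutive partner of IKKε, had a positive value that did not pass the test. It had 34.6, 51.0 and 49.1 CPM with vehicle and 44.8, 56.2 and 64.5 CPM with PF, and the groups overlapped. Its log2 value was 0.30 (SE 0.14, adjusted p = 0.144). Without WT PF library 1 it was 0.43 with an adjusted p of 0.0248, and in the GC-adjusted fit it was 0.014 with an adjusted p of 0.947. The ratio of *Ikbke* to *Tbk1* per kilobase was 4.53 to 7.06 in the WT vehicle libraries and 2.54 to 4.09 in the WT PF libraries, so the ranges did not overlap. This ratio sets a GC-rich gene (54.6%) against a GC-poor one (45.4%) and was not adjusted for the GC trend of the libraries. The part of that trend in the ratio was not tested.

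Within the IKK complex, the kinase genes had values of opposite sign. *Chuk*, the kinase of the noncanonical NF-κB pathway, had 5.35, 10.2 and 7.36 CPM with vehicle and 9.09, 12.2 and 16.5 CPM with PF. The lowest PF library was thus below the highest vehicle library. The *Chuk* value was 0.72 on the log2 scale (SE 0.22, adjusted p = 0.0437). This call was lost under 13 of 23 alternatives, among them limma-voom (adjusted p = 0.0528), the 6 WT libraries fitted alone (0.107) and the GC-adjusted fit (0.28 on the log2 scale, adjusted p = 0.278). It was lost when library 1 (adjusted p = 0.151) or library 3 (0.12) of WT vehicle was left out, when library 2 (0.0949) or library 3 (0.21) of WT PF was, and, with 0.0541 to 0.0592, without any one AMPKβ1-/- PF library or without libraries 2 or 3 of AMPKβ1-/- vehicle. Over all alternatives adjusted p ranged from 0.007 to 0.278.

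*Ikbkb*, the main kinase of the canonical pathway, had 140, 139 and 150 CPM with vehicle and 128, 128 and 129 CPM with PF. All PF libraries were below all vehicle libraries, as in 18.1% of the tested genes, but the difference of -0.16 on the log2 scale (SE 0.074) did not pass the test (adjusted p = 0.136, and -0.076 in the GC-adjusted fit). *Ikbkg*, the regulatory subunit that binds ubiquitin chains, had 76.7 to 80.2 CPM with vehicle and 78.5 to 86.0 CPM with PF, a log2 difference of 0.079 (SE 0.072, adjusted p = 0.433) that was -0.19 in the GC-adjusted fit. The *Ikbkb* to *Chuk* ratio per kilobase was 13.4 to 25.7 with vehicle and 7.68 to 13.7 with PF, which overlapped.

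**Figure D2:**
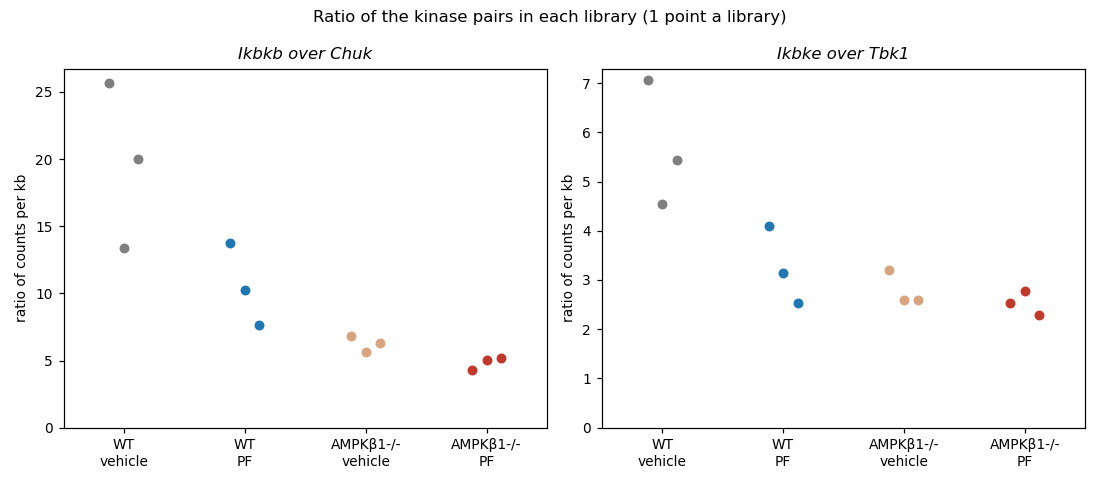
Ratio of counts per kilobase of transcript of *Ikbkb* to *Chuk* and of *Ikbke* to *Tbk1*, with 1 point for each library and a linear axis from 0. Each ratio sets a GC-rich gene against a GC-poor one and is not adjusted for the GC trend of the libraries. The *Ikbkb* to *Chuk* ratio is highest in the WT vehicle libraries (13.4 to 25.7) and lowest in the AMPKβ1-/- PF libraries (4.31 to 5.19), and the *Ikbke* to *Tbk1* ratio is 4.53 to 7.06 in WT vehicle and 2.29 to 2.77 in AMPKβ1-/- PF libraries.

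None of the 3 genes of the brake was called with PF in WT BMDMs. *Tnfaip3* had 44.8, 44.8 and 56.9 CPM with vehicle and 48.5, 52.3 and 56.1 CPM with PF, which overlapped (log2 fold change 0.099, SE 0.11, adjusted p = 0.534). *Tnip1*, whose product binds A20 and brings it to ubiquitin chains, had 196, 178 and 189 CPM with vehicle and 192, 143 and 148 CPM with PF. WT PF library 1 lay among the vehicle libraries and the other two lay below them. The *Tnip1* difference was -0.22 (SE 0.095, adjusted p = 0.113). Without WT PF library 1 it was -0.36 with an adjusted p of 0.00422, where the alternatives ranged from 0.00422 to 0.999, and in the GC-adjusted fit it was 0.025.

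*Cyld*, a deubiquitinase that removes chains from NEMO, RIPK1 and TRAF proteins, had 15.1, 25.2 and 21 CPM with vehicle and 20.2, 32.1 and 32.8 CPM with PF. Its value of 0.47 on the log2 scale (SE 0.19) missed the threshold (adjusted p = 0.0999). It passed with DESeq2 (adjusted p = 0.0478) and without WT vehicle library 2 (0.0371) or WT PF library 1 (0.0081), and it was 0.15 in the GC-adjusted fit. Over all alternatives its adjusted p ranged from 0.0081 to 0.68. The value was the second highest of the 10 genes, on libraries that overlapped between the groups.

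Of the platform genes, *Ripk1*, the kinase and scaffold recruited to the TNF receptor, had 101, 107 and 94.6 CPM with vehicle and 110, 109 and 126 CPM with PF. The PF libraries were all above the vehicle libraries, as in 14.2% of the tested genes. The log2 difference was 0.19 (SE 0.080, adjusted p = 0.0967), and it was -0.065 in the GC-adjusted fit. *Tab2*, the adaptor that ties the kinase TAK1 to ubiquitin chains, had 71.3 to 93.9 CPM with vehicle and 81.6 to 109 CPM with PF, and it did not pass (log2 fold change 0.13, SE 0.12, adjusted p = 0.431), with 0.047 after the GC adjustment.

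In AMPKβ1-/- BMDMs PF changed none of the 10 genes past the threshold in edgeR, where 0.0554% of the tested genes were called, all of them higher. At an unadjusted p below 0.05 there were also 0 of 10, and 0 were called by DESeq2 and by limma-voom. *Ikbke* had 255, 215 and 210 CPM with vehicle and 233, 229 and 195 CPM with PF in AMPKβ1-/- BMDMs. These groups overlapped, with a log2 difference of -0.046 (SE 0.094, adjusted p = 0.985). *Chuk* had 20.4, 21.6 and 19.1 CPM with vehicle and 29.4, 25.2 and 24.6 CPM with PF. The *Chuk* groups did not overlap, and the log2 difference was 0.37 (SE 0.19, adjusted p = 0.982), or 0.13 after the GC adjustment. *Tnfaip3*, with 52.1, 66.3 and 63.3 CPM against 71.4, 71.6 and 67.2 CPM, also had all PF libraries above all vehicle libraries (log2 fold change 0.21, SE 0.11, adjusted p = 0.982). Together with *Ikbkg* (80.0 to 81.7 against 82.5 to 87.5 CPM) these were 3 of 10 genes with PF libraries above the vehicle libraries, where 8.21% of the tested genes had that, and 0 of 10 with PF libraries below, where 6.28% had that (14.5% in all). The other 6 genes had log2 fold changes from -0.040 to 0.11, and from -0.14 to 0.090 after the GC adjustment.

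**Figure D3:**
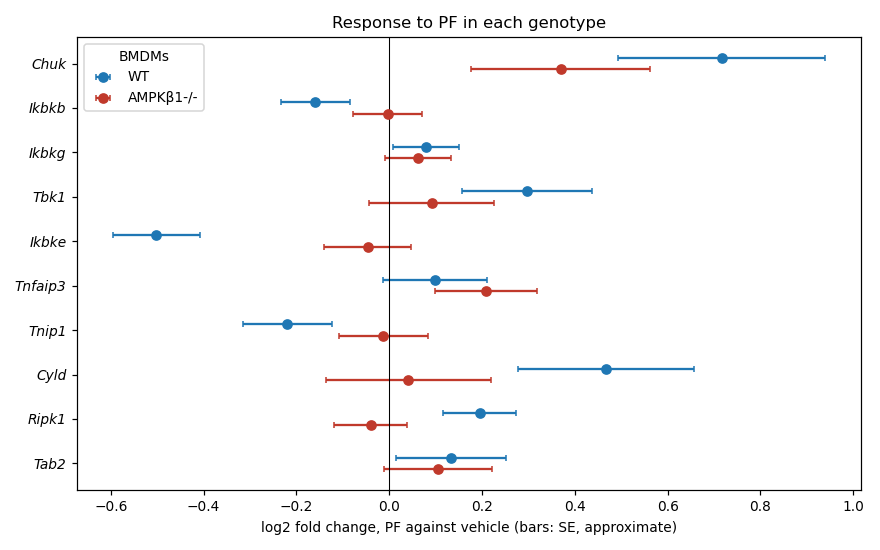
Log2 fold change of PF against vehicle for each gene in WT and in AMPKβ1-/- BMDMs, with approximate SE as bars (edgeR, 3 libraries a group). *Ikbke* is at -0.50 in WT and -0.046 in AMPKβ1-/- BMDMs, and *Chuk* is at 0.72 and 0.37.

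The response difference, which sets the PF effect in WT against that in AMPKβ1-/- BMDMs in the same fit, called 0 of 10 genes in edgeR, where 0.416% of the tested genes were called (0.176% higher and 0.24% lower). DESeq2 called 0 of them as well. *Ikbke* was the 1 gene with an unadjusted p below 0.05. Its difference was -0.46 on the log2 scale (SE 0.13, adjusted p = 0.149 from edgeR), and over 22 alternatives the adjusted p ranged from 0.0571 to 0.373. In the GC-adjusted fit the *Ikbke* difference was -0.32 (SE 0.095, adjusted p = 0.108). The fall of *Ikbke* in WT BMDMs is thus not shown to differ from the value in AMPKβ1-/- BMDMs at the threshold over all genes. *Ripk1* had a difference of 0.23 (SE 0.11, adjusted p = 0.356), *Cyld* of 0.43 (SE 0.26, adjusted p = 0.476) and *Chuk* of 0.35 (SE 0.30, adjusted p = 0.608). After the GC adjustment these differences were 0.074, 0.26 and 0.16. The remaining 6 genes had differences between -0.21 and 0.20, and between -0.14 and -0.0034 after the adjustment.

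More genes were called between the genotypes than with PF. With vehicle, 8 of 10 genes were called between AMPKβ1-/- and WT BMDMs, 6 higher and 2 lower, where 59.7% of the tested genes were called (29.7% higher and 30% lower). The DEGs among them were *Chuk* and *Cyld*, 2 of 10 where 17.8% of the tested genes were DEGs. The median log2 fold change was 0.31, against -0.026 over all tested genes. The libraries of the genotypes did not overlap for 5 genes that were higher and 1 that was lower in AMPKβ1-/- BMDMs, where this held for 30.9% and 32% of the tested genes (62.9% in all). This comparison shares its WT vehicle libraries with the response to PF in WT.

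*Chuk* rose most, by 1.41 on the log2 scale (SE 0.22, adjusted p = 1.56e-04), from 5.35 to 10.2 CPM in WT to 19.1 to 21.6 CPM in AMPKβ1-/- vehicle libraries. *Cyld* rose by 0.99 (SE 0.19, adjusted p = 6.44e-04), from 15.1 to 25.2 CPM to 36.6 to 44.0 CPM. Neither gene's libraries overlapped between the genotypes. *Tbk1* rose by 0.75 (SE 0.14, adjusted p = 4.5e-04), from 34.6 to 51.0 CPM to 74.1 to 77.1 CPM. *Tab2* rose by 0.62 (SE 0.12, adjusted p = 5.21e-04), from 71.3 to 93.9 CPM to 118 to 136 CPM. Both of these also stood clear of WT in every library.

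Smaller rises were seen for *Tnfaip3* (0.31, SE 0.11, adjusted p = 0.0246) and *Ripk1* (0.30, SE 0.079, adjusted p = 0.00417). *Tnip1* fell by 0.42 (SE 0.095, adjusted p = 0.00169), from 178 to 196 CPM to 137 to 144 CPM. *Ikbke* fell by 0.23 (SE 0.094, adjusted p = 0.0435), with overlapping libraries of 248 to 287 CPM and 210 to 255 CPM. That call was lost under 13 of 22 alternatives and its sign turned under 2, and it was lost, with adjusted p from 0.0511 to 0.163, without any one of libraries 1 and 3 of WT vehicle, library 2 of WT PF, libraries 2 and 3 of AMPKβ1-/- vehicle, and libraries 1 and 2 of AMPKβ1-/- PF. The *Tnfaip3* call was lost without WT vehicle library 1 (0.0959) or 2 (0.0964) or AMPKβ1-/- vehicle library 2 (0.122) or 3 (0.0771), and in the GC-adjusted fit (0.22 on the log2 scale, adjusted p = 0.0676). *Ikbkb* (-0.14, adjusted p = 0.113, and -0.0069 after the GC adjustment) and *Ikbkg* (0.048, adjusted p = 0.584) did not pass, and *Ikbkb* was called lower (-0.21, adjusted p = 0.0225) without AMPKβ1-/- vehicle library 1.

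At its ends the order of these values followed GC content, with the GC-poor *Chuk* and *Cyld* at the top and the GC-rich *Tnip1* and *Ikbke* at the bottom. Between them it did not, since *Ikbkg* (0.048) and *Ripk1* (0.30), both GC-poor over the transcript used, lay below *Tab2* (0.62). For *Ikbkg* this rests on the annotated 3′ UTR of 5419 bases (42.2% GC), since its coding sequence had 55.0%. Other transcripts of these genes were not tried. Over all tested genes the median log2 fold change ran from 1.30 in the lowest GC decile to -0.42 in the highest. With PF against vehicle in WT BMDMs the same medians ran from 0.47 to -0.26.

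**Figure D4:**
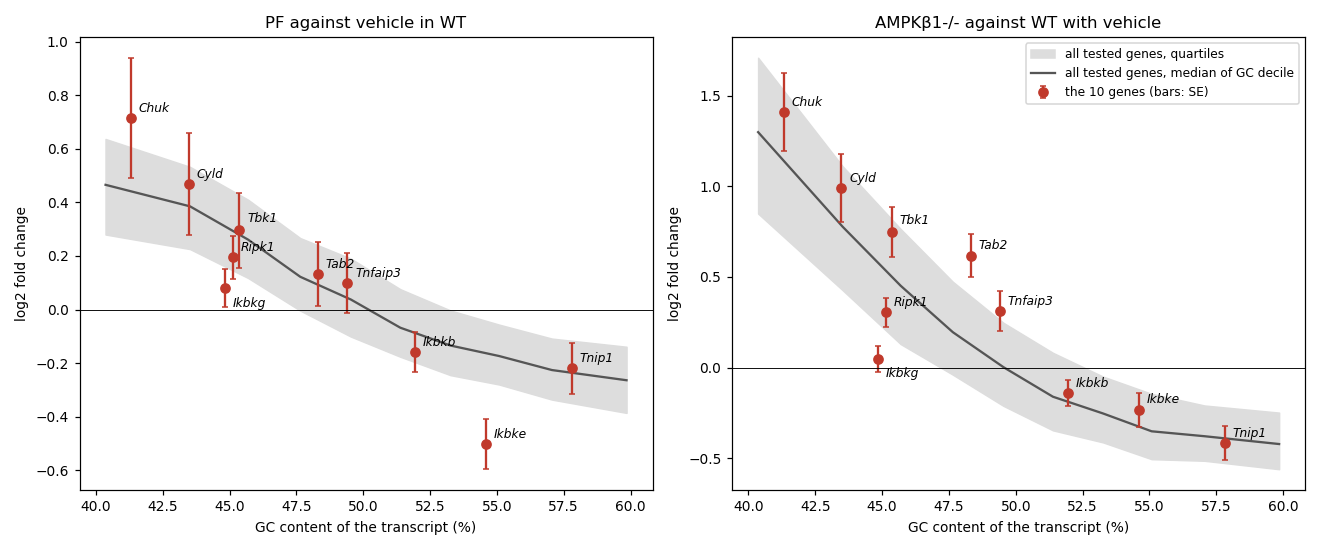
Log2 fold change against the GC content of the transcript for the 10 genes (points with SE), with the median (line) and quartiles (band) of all tested genes by GC decile, for PF against vehicle in WT and for AMPKβ1-/- against WT with vehicle. With PF in WT, *Ikbke* lies below the band (-0.50 against a lower quartile of -0.28 in its decile). *Ikbkg* also lies below it there (0.079 against 0.12), and *Chuk* lies above it (0.72 against an upper quartile of 0.64). Between the genotypes *Tab2* and *Tnfaip3* lie above the band and *Ikbkg* below it.

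In the GC-adjusted fit, 5 of 10 genes were called between the genotypes with vehicle, 3 higher and 2 lower, where 35.0% of the tested genes were called. *Chuk* (0.43), *Tbk1* (0.29) and *Tab2* (0.43) were higher, and each of these was called under all 22 alternatives to the TMM result. *Ikbkg* (-0.74) and *Ripk1* (-0.42) were called lower, which for *Ripk1* is the opposite direction to the TMM result. *Cyld* (0.0060, adjusted p = 0.973), *Tnip1* (-0.036, adjusted p = 0.718), *Ikbke* (0.040) and *Tnfaip3* (0.22) were no longer called. *Ikbkg* has a 3′ UTR of 5419 bases, *Cyld* of 4932 and *Ripk1* of 4365, the longest of the 10. Where GC content alone was adjusted for, *Ikbkg* was at -0.56, *Ripk1* at -0.26 and *Cyld* at 0.21.

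**Figure D5:**
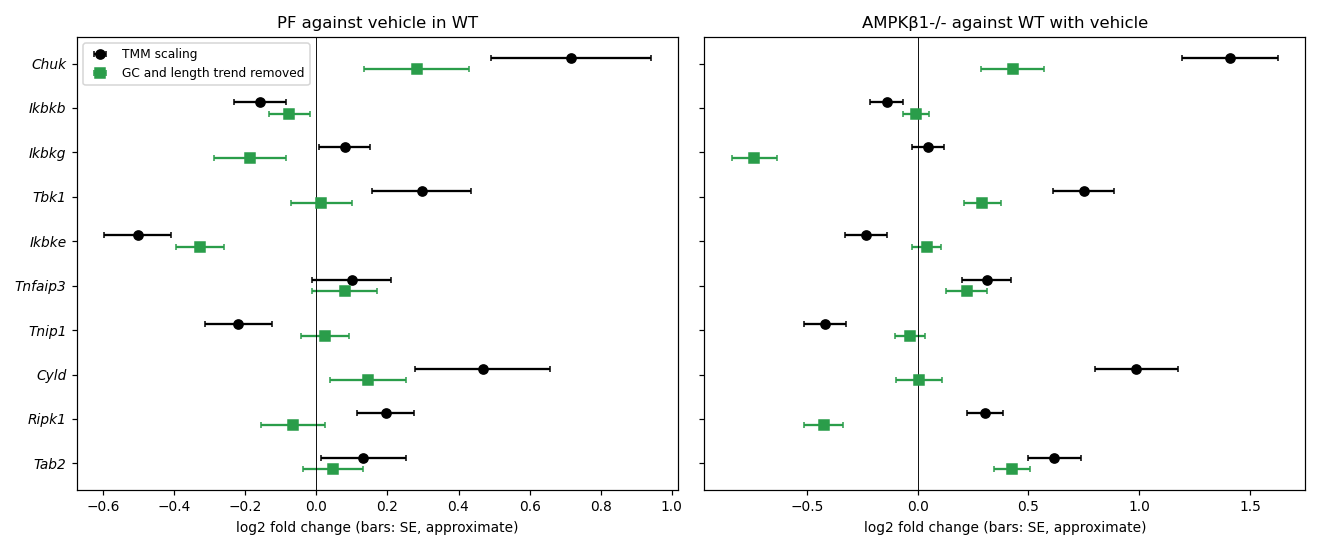
Log2 fold change (bars: approximate SE) of each gene with TMM scaling and in the GC-adjusted fit, for PF against vehicle in WT and for AMPKβ1-/- against WT with vehicle. *Ikbke* stays below 0 with PF in WT (-0.50 and -0.33), and *Tab2* stays above 0 between the genotypes (0.62 and 0.43), while *Cyld* goes from 0.99 to 0.0060.

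With PF in both genotypes, 5 of 10 genes were called between AMPKβ1-/- and WT BMDMs, all higher, where 47.1% of the tested genes were called (24.1% higher and 22.9% lower). The libraries did not overlap for 5 genes that were higher and 1 that was lower, where this held for 59.9% of the tested genes (29.9% and 30%). *Chuk* (1.06, adjusted p = 7.89e-04) was the only DEG, where 14.3% of the tested genes were. *Tab2* (0.59, adjusted p = 9.99e-04), *Cyld* (0.56, adjusted p = 0.0213), *Tbk1* (0.54, adjusted p = 0.00481) and *Tnfaip3* (0.42, adjusted p = 0.00573) followed. *Tnfaip3* was called under all 22 alternatives in this comparison, with log2 fold changes of 0.35 to 0.57. *Cyld* lost its call without WT PF library 1 (adjusted p = 0.0697) or AMPKβ1-/- PF library 1 (0.0697), and in the GC-adjusted fit it was -0.26.

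*Ikbke* had the opposite sign here to the vehicle comparison, at 0.22 (SE 0.094, adjusted p = 0.0625), from 176 to 197 CPM in WT and 195 to 233 CPM in AMPKβ1-/- libraries, which overlapped. It was called under 10 of 22 alternatives, with adjusted p from 3.77e-04 to 0.214, among them the GC-adjusted fit (0.36), and without AMPKβ1-/- vehicle library 1 (0.0394) or AMPKβ1-/- PF library 3 (0.0299). *Tnip1* (-0.21, adjusted p = 0.0804, and -0.033 after the GC adjustment) was called without WT PF library 2 (0.0373) or 3 (0.0404). After that adjustment 7 genes were called, where 39.2% of the tested genes were, with *Tbk1* (0.30), *Ikbke*, *Tnfaip3* (0.35) and *Tab2* (0.47) higher and *Cyld*, *Ikbkg* (-0.60) and *Ripk1* (-0.50) lower. *Chuk* was then at 0.27 and no longer called (adjusted p = 0.0911).

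NF-κB acts on the genes of its own brake. A κB consensus of 10 bases, on either strand, was sought in the 250 bases before each listed start site. It was found for 3 of the 9 genes with a listed promoter. These were *Tnfaip3* (in 1 of 2 listed promoters), *Tnip1* and *Cyld*, the 3 genes of the brake. Of all 32851 promoters 7.25% held the consensus, which is a share of promoters and not of genes. Promoters of 9 of the 10 genes were listed in RefSeq on GRCm38.p6 (15 promoters), and the consensus was not found for *Chuk*, *Ikbkg*, *Tbk1*, *Ikbke*, *Ripk1* and *Tab2*. A looser pattern, GGG and CC with any 5 bases between them, was in a promoter of 7 of the 9 genes, all but *Ikbke* and *Tab2*, and in 45.8% of all promoters. None of *Tnfaip3*, *Tnip1* and *Cyld* was called with PF in WT BMDMs. Their sites are shown with the consensus in capitals.
Tnfaip3, distal: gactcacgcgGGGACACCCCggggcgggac
Tnfaip3, proximal: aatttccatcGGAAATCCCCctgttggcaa
Tnip1: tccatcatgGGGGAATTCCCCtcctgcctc
Cyld: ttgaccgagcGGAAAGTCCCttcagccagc

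The distal *Tnfaip3* site lies at chr10:19015516-19015545 and the proximal one at chr10:19015403-19015432 on the minus strand. The *Tnip1* site, at chr11:54962978-54963007 on the minus strand, holds 3 overlapping matches in its capitals. The *Cyld* site is at chr8:88696863-88696892 on the plus strand. A match is a description of these letters and not a bound site.

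The wider pathway is described by 5 lists around the 10 genes, which were chosen with earlier results of these data known. The log2 fold changes of single list genes are those with TMM scaling and are not GC-adjusted. Of the NF-κB subunits and IκB proteins downstream of IKK, 8 of 10 fell and 0 rose with PF in WT BMDMs, beside 8.95% and 6.99% of the tested genes, with a median log2 fold change of -0.36. *Bcl3*, a nuclear IκB protein, fell by 0.70 (SE 0.11, adjusted p = 0.00225), *Nfkb2*, the p100 precursor, by 0.46 (SE 0.092, adjusted p = 0.0066) and *Nfkbie*, which encodes IκBε, by 0.37 (SE 0.077, adjusted p = 0.0077). In the GC-adjusted fit 4 of 10 fell, where 6.98% of the tested genes were called in either direction. In the response difference *Bcl3* was called, at -0.96 (SE 0.16, adjusted p = 0.0196).

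Of the adaptors and activators of TBK1, 1 of 10 rose and 4 fell with PF in WT BMDMs (6.99% and 8.95% of the tested genes), with a median of -0.25. *Sting1*, the adaptor for cytosolic DNA, fell by 0.58 (SE 0.088, adjusted p = 0.00137), *Mavs*, the adaptor for viral RNA, by 0.35 (SE 0.077, adjusted p = 0.011) and *Ticam1* (TRIF) by 0.41 (SE 0.11, adjusted p = 0.0208). *Optn*, a ubiquitin-binding partner of TBK1, rose by 0.41 (SE 0.11, adjusted p = 0.02). After the GC adjustment 1 rose and 1 fell. *Sting1* was also called in the response difference (-0.62, SE 0.12, adjusted p = 0.0463), and with DESeq2's size factors 0 of these 10 genes were.

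Of the relay from TNF receptors and Toll-like receptors to IKK, 2 of 18 rose and 2 fell with PF in WT BMDMs, a share near that of all tested genes (6.99% and 8.95%). *Map3k7*, which encodes TAK1, rose by 0.60 (SE 0.16, adjusted p = 0.0222) and *Ube2d3*, a ubiquitin-conjugating enzyme, by 0.40 (SE 0.097, adjusted p = 0.0173). *Map3k14*, which encodes NIK, fell by 0.44 (SE 0.10, adjusted p = 0.0164) and *Traf2* by 0.29 (SE 0.082, adjusted p = 0.0286). This became 0 and 1 in the GC-adjusted fit.

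Of the genes for linear ubiquitin chains and deubiquitination, 2 of 13 rose and 3 fell (6.99% and 8.95% of the tested genes). The members that fell were *Rnf31* (HOIP) by 0.39 (SE 0.097, adjusted p = 0.019) and *Rbck1* (HOIL-1) by 0.35 (SE 0.097, adjusted p = 0.0286), both subunits of the complex that makes linear chains, and *Spata2*, which ties CYLD to that complex, by 0.32 (SE 0.095, adjusted p = 0.0351). *Tax1bp1* rose by 0.79 (SE 0.22, adjusted p = 0.0315) and *Rnf11* by 0.43 (SE 0.14, adjusted p = 0.0477), both of which encode partners of A20. In the GC-adjusted fit 1 rose and 0 fell. Of the 5 genes of the death branch of RIPK1, 0 were called.

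In AMPKβ1-/- BMDMs PF changed 0 genes of all 5 lists in edgeR, with 0 to 1 gene of a list at an unadjusted p below 0.05. Between the genotypes with vehicle, 9 of 18 relay genes were higher and 7 lower, beside 29.7% and 30% of the tested genes. *Map3k7* (1.08, SE 0.15, adjusted p = 9.59e-05) and *Ube2v1* (-0.51, SE 0.080, adjusted p = 1.47e-04) had the smallest p in each direction. In the same comparison 2 of 10 NF-κB and IκB genes were higher and 5 lower, and in the GC-adjusted fit 5 were higher and 0 lower, where 35.0% of the tested genes were called. *Nfkbiz*, an inducible nuclear IκB protein, was higher by 0.76 with vehicle (SE 0.12, adjusted p = 1.38e-04) and by 1.26 with PF (SE 0.12, adjusted p = 2.23e-06). With vehicle 3 of 10 TBK1 adaptors were higher and 5 lower, beside the same shares of all tested genes, with *Azi2* (0.91) and *Tank* (1.17), which bind TBK1, among the former and *Sting1* (-0.71) among the latter. These genotype counts of the relay and of the adaptors are not GC-adjusted.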

How the data were processed

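Reads of 12 directional RNA libraries went through MultiQC, Trim Galore for trimming and Salmon for quantification by the authors, who tested genes with DESeq2. Versions, genome build and annotation are not given in the sources used here. The deposited values are estimated counts per gene, as whole numbers and not normalized. The 10 genes, the gene lists and the tests were chosen with earlier results of these data known. Count columns name genotype and treatment, and libraries are numbered within a group as their columns are.

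The main test was that of edgeR 4.0.16 in R 4.3.3 (quasi-likelihood, robust), with TMM scaling (factors 0.881 to 1.09) and filterByExpr, in one fit of 4 group means, with Benjamini-Hochberg adjustment over 10822 genes. A gene was called at an adjusted p below 0.05, and the 0.8 threshold for DEGs is that of the study. SE are approximate, since they come from each log2 fold change and its F. A gene listed at 0 allows up to 3 counts (0.196 to 0.321 CPM), for counting error only. No replicate libraries were identical, and they differed by 2.19 to 18.5 times the variance of counting. GC content and length came from a single GENCODE M21 transcript of each gene, for coding genes the one with the longest coding sequence. By their symbol 12703 genes were found and 194 by a former one, and 63 were not found. This gave GC content for 99.7% of the tested genes. The trend was fitted in each library with splines of 5 degrees of freedom and used as an offset. Named genes were the 10 genes, *Prkab1* and, of each list and contrast, up to 3 called genes with the smallest p in each direction, of which some are printed. Alternatives used limma 3.58.1 and DESeq2 1.42.0. Scripts were tested on simulated data. RNA of near-identical copies and antisense partners could be shared between genes by the authors' counting.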

Additional observations from a re-analysis of the deposited data

How the results depend on the processing

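The count of called genes with PF in WT BMDMs (2) was 1 with limma-voom, with the 6 libraries of the contrast alone, with the GC and length trend removed and with the GC trend alone removed (chosen after the data were seen), 0 with the log2 threshold of 0.8, and 1 to 5 when each library was left out (5 without WT PF library 1). It was 3 with library size alone and with DESeq2, and 4 in the fit with a replicate block, also added later. The labels do not state whether like-numbered libraries are paired. The deviations of like-numbered libraries correlated at 0.32, -0.0063 and 0.12 in WT and at -0.17, -0.13 and 0.077 in AMPKβ1-/- BMDMs. These values cannot decide the pairing, since libraries of unlike number were not set beside them. The count between genotypes with vehicle (8) was 5 with the GC and length trend removed and 2 with the log2 threshold, 6 to 8 under the other alternatives, and 6 to 9 over the libraries left out. With PF (5) it was 1 with the log2 threshold, 7 in the GC-adjusted fit and with library size alone, 5 or 6 under the other alternatives, and 4 to 6 over the libraries left out. The counts for PF in AMPKβ1-/- BMDMs and for the response difference were 0 under every alternative run. Library size in place of TMM put the median of all tested genes between the genotypes at 0.18 with vehicle (-0.026 with TMM) and at 0.15 with PF (-0.0012), with the median of the 10 genes at 0.52 and 0.47. The cause of the other changes was not tested.

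Directions turned as follows, with the log2 value after removal of the GC and length trend first and of the GC trend alone second. With PF in WT BMDMs these were *Ikbkg* (-0.19, -0.23), *Ripk1* (-0.065, -0.10) and *Tnip1* (0.025, 0.00048). With PF in AMPKβ1-/- BMDMs they were *Cyld* (-0.12, -0.096), *Ikbkg* (-0.047, -0.028), *Ikbkb* (0.024, 0.022) and *Tnip1* (0.029, 0.030). In the response difference they were *Ikbkg* (-0.14, -0.20), *Tab2* (-0.043, -0.067) and *Tbk1* (-0.0093, -0.0053). Between genotypes with vehicle they were *Ikbkg* (-0.74, -0.56), *Ripk1* (-0.42, -0.26) and *Ikbke* (0.040, 0.035), with *Ikbkb* at 0.0012 under the GC trend alone. With PF they were *Ikbkg* (-0.60, -0.36) and *Ripk1* (-0.50, -0.28). There *Cyld* turned only after removal of the GC and length trend (-0.26), and it was 0.022 after removal of the GC trend alone. Library size alone turned *Ikbkb* between genotypes with vehicle (0.069), and with PF in AMPKβ1-/- BMDMs it turned *Ikbkb* (0.016) and *Tnip1* (0.0061). *Ikbkb* there also turned with DESeq2's size factors (0.0085), with at least 10 counts in every library (0.0020) and with DESeq2 (0.0087). Over the libraries left out, signs turned with PF in AMPKβ1-/- BMDMs for *Cyld* (-0.030 to 0.10), *Ikbkb* (-0.038 to 0.068), *Ikbke* (-0.097 to 0.046) and *Tnip1* (-0.029 to 0.0087). They turned in the response difference for *Ikbkg* (-0.011 to 0.053), *Tab2* (-0.11 to 0.11) and *Tnfaip3* (-0.18 to 0.014), and between genotypes with PF for *Ikbkg* (-0.0058 to 0.059).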

Other observations

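Over the 12 libraries, the genes whose log2 CPM followed that of a member most closely are given as a description, since all points share the 4 groups and the trend in GC content. *Ikbke* was most like *Tlr9* (Pearson's r = 0.976), *Icam1* (0.962) and *Cyp27a1* (0.956). *Chuk* was most like *Rbm6* (0.992), *Tbk1* like *Usp32* (0.993), *Cyld* like *Pcnp* (0.993) and *Tab2* like *Dock10* (0.995). *Tnip1* was most like *Tmem109* (0.980), *Ikbkb* like *Cep250* (0.969), *Ripk1* like *Serac1* (0.973), *Tnfaip3* like *Cnep1r1* (0.975) and *Ikbkg* like *1110059G10Rik* (0.914).

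Among the 10 genes themselves, *Chuk*, *Tbk1*, *Cyld* and *Tab2* ran together over the libraries, with r from 0.923 to 0.982, and *Tnip1* ran against *Cyld* at -0.957. The same limit from the shared groups and the GC trend applies to these values. *Ikbke* and *Ikbkb* had r = 0.799 with each other, while *Ikbke* and *Tbk1*, which encode the closest relatives of the IKK kinases, had r = -0.30.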
